A study of Mus musculus with 32 samples.

Results

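The caudal-related homeobox family of the mouse has 3 members, Cdx1, Cdx2 and Cdx4, and the arrays carried 4 probe sets for them. These were all probe sets whose annotation gave exactly 1 symbol equal to a member: 1449582_at for Cdx1, 1422075_at and 1422074_at for Cdx2, and 1421552_at for Cdx4, out of 45037 non-control probe sets and 18193 genes. The probe sets of these genes were taken by annotation alone.

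Cdx proteins are DNA-binding transcription factors that pattern the posterior body axis of the embryo, in large part by switching on Hox genes. They are transcribed in the primitive streak and the tail bud, where WNT, FGF, BMP and retinoic acid signals act on them, and Cdx2 is in addition needed for the trophectoderm and for the identity of the intestine. Primordial germ cells (PGCs), the precursors of sperm and eggs, arise in the posterior epiblast beside the cells that form the streak, under BMP4, and are known to silence a somatic programme that includes Hox genes.

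The study compared 2 ways of turning epiblast-like cells (EpiLCs), a culture model of the early epiblast made from embryonic stem cells (ESCs), into PGC-like cells (PGCLCs): a mixture of cytokines, or induced transcription factors without the cytokines. It has 16 groups of 2 arrays each, which the submitters describe as biological duplicates; 22 arrays in 11 groups were new and 10 arrays in 5 groups came from an earlier series of the same laboratory and were processed again. All tests compare groups within the new arrays or within the earlier arrays.

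All cells of the new arrays were male, of mixed C57BL/6 and 129 background, and carried the Blimp1-mVenus and stella-ECFP reporters and Rosa26-rtTA, controls included. The factor-induced cells were BP14A (Blimp1, Prdm14 and Tfap2c) at day 2 and day 4, and BP14 (Blimp1 and Prdm14), P14A (Prdm14 and Tfap2c) and P14 (Prdm14 alone) at day 2, all from 36 h EpiLCs aggregated at 2000 cells per well in GK15 medium with doxycycline (Dox) at 1.5 µg/ml. Each transgene was a piggyBac construct in which a tetOx8-mCMV promoter, opened by Dox through rtTA, drove Avi-Blimp1, 3xFLAG-Prdm14 or V5-Tfap2c ahead of IRES-beta geo (with bGH pA after it for Blimp1). The cytokine-induced cells (Ck-PGCLCs, day 2 and day 4) came from the parental clone under EGF at 50 ng/ml, SCF at 100 ng/ml, 1000 U/ml LIF, and BMP4 as well as BMP8A at 500 ng/ml. The references were the parental clone at day 2 with Dox and no factor transgene, and 36 h EpiLCs of that clone, so both rest on 1 clone. The remaining new groups were BP14A ESCs given Dox and sorted at day 2 for stella-ECFP, and the same ESCs without Dox in 2i+LIF, a medium with MEK and GSK3 inhibitors and LIF. The earlier groups were of C57BL/6 background: male Ck-PGCLCs at day 6, 48 h EpiLCs and 2i+LIF ESCs with Blimp1-mVenus and stella-ECFP, stella-EGFP PGCs of embryonic day 9.5 (E9.5) of unknown sex, and E5.5 epiblast of unknown sex with no reporter named.

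Values are the submitters' log2 values after quantile normalization. The median of the deposited values lay between 4.62 and 4.78 in the 32 arrays, and arrays of the same group correlated at 0.9563 to 0.981 over the tested probe sets. A group was called dim for a probe set when its mean lay under 4.05, the 40th percentile of all values, and values under it are treated as having no order. RNA was amplified from about 20000 cells, and the 5′ minus 3′ difference of the Gapdh control probe sets ran from -4.66 to -0.07. It was -1.47 and -1.12 in Ck-PGCLCs at day 2, -0.33 and -0.35 in the parental clone, and -3.03 and -0.42 in 36 h EpiLCs. At day 4 it was -0.47 and -1.62 in Ck-PGCLCs and -4.66 and -2.99 in BP14A cells. At day 2 it was -1.03 and -0.58 in BP14A and -4.07 and -0.37 in BP14 cells. P14A cells read -0.42 and -0.09, and P14 cells -0.91 and -0.64. BP14A ESCs read -2.14 and -3.13 with Dox, and -2.82 and -0.76 without. The part of this difference in the results below was not tested. The 2 arrays per group limit the precision of every value. The p-values rest on the spread between arrays within groups, pooled over all 16 groups, and that spread may in part be technical. In such bulk samples a smaller share of cells with a transcript and less of it per cell cannot be told apart.

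The stretches directly upstream of the start sites of Cdx2 and Cdx4 are printed here because both genes had their highest level in the same group, Ck-PGCLCs at day 2. RefSeq's promoter table (GRCm38.p6) held 2 of the 3 members, and the 250 bases before each start site are given 5′ to 3′ on the gene's strand, with the matches to the motifs searched in capitals. The Cdx2 stretch is chr5:147307250-147307499 on the minus strand and the Cdx4 stretch is chrX:103321148-103321397 on the plus strand.
Cdx2: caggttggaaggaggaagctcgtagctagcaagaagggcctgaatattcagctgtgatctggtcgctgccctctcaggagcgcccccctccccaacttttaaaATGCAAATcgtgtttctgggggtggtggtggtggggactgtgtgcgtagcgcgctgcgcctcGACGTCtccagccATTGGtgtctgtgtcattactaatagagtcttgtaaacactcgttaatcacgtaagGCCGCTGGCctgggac
Cdx4: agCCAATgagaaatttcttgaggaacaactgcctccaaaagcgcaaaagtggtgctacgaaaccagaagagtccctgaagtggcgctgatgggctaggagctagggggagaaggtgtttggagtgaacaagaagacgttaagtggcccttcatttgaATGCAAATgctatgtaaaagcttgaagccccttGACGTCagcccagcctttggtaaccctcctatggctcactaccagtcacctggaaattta

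Both stretches held the octamer ATGCAAAT, the site of POU factors such as Pou5f1 (Oct4), in the forward direction: at bases -147 to -140 of Cdx2 and -93 to -86 of Cdx4, counted from -1 at the base before the start site. Of the 32851 upstream stretches in the table, 1.6% held it on either strand. Both also held the palindrome GACGTC, the core of the cyclic AMP response element, at -85 to -80 of Cdx2 and -60 to -55 of Cdx4 (3.77% of all stretches). The CCAAT box matched on the reverse strand of Cdx2 at -72 to -68 and on the forward strand of Cdx4 at -248 to -244 (33.8%). The AP-2 site GCCNNNGGC, the kind of site Tfap2c binds, matched in Cdx2 alone, at -16 to -8 (13.7%). No matches overlapped.

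The other motifs searched on both strands had no match in either window. They were the TCF and LEF core CTTTGA (13.8% of all stretches), the nuclear receptor core AGGTCA (14%), the Cdx core TTTATG (10.8%), the BMP Smad site GGCGCC (9.59%), the Blimp1 core AAGTGAAA (1.36%), the Prdm14 site GGTCTCTAA (0.24%), the T-box core TCACACCT (1.12%), the TATA box TATAAA (12.4%) and the palindromic Smad site GTCTAGAC (0.167%). These counts describe letters in the windows and are not measurements of binding.

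Cdx1, a target of WNT and retinoic acid signalling that is transcribed in the streak, was the member seen in the most groups: its probe set lay above the dim limit in 7 of 16. It stood at 9.21 and 8.84 in Ck-PGCLCs at day 2 and at 9.23 and 8.70 in the parental clone with Dox. It read 7.83 and 7.90 in 2i+LIF ESCs, and 7.50 and 7.27 in BP14A ESCs. These 4 groups were the high ones, and the arrays of the top pair of groups overlapped. Intermediate levels were 6.37 and 6.06 in Ck-PGCLCs at day 4, 6.08 and 5.27 at day 6, and 5.65 and 5.46 in E9.5 PGCs, and the arrays of day 6 overlapped those of day 4 and of the PGCs. In the other 9 groups the mean was dim, between 3.54 and 3.97, and this covered every factor-induced group, both EpiLC groups and the epiblast.

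Cdx2, which directs trophectoderm, hindgut and posterior axis, was read by 2 probe sets. The first, 1422075_at, stood at 9.13 and 9.01 in Ck-PGCLCs at day 2, at 7.44 and 7.32 at day 4 and at 5.04 and 4.32 at day 6. It read 6.98 and 7.37 in E9.5 PGCs, and 7.56 and 5.39 in the parental clone with Dox. The 2 parental arrays lay further apart (mean 6.48 ± 1.53, SD, n = 2) than the arrays of any other group above the dim limit. Epiblast read 4.48 and 4.20, just above the limit, and the other 10 groups were dim with means of 1.07 to 3.15. Both ESC groups were among the dim ones, unlike for Cdx1.

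The other Cdx2 probe set, 1422074_at, was above the limit in 3 groups. It stood at 6.09 and 5.80 in Ck-PGCLCs at day 2, at 4.57 and 4.05 at day 4, and at 4.55 and 5.19 in E9.5 PGCs. The parental arrays read 4.51 and 2.90, so this probe set put the same parental array higher as 1422075_at did. Over the 16 group means the pair of Cdx2 probe sets correlated at r = 0.925 (Spearman 0.768), as a description of values from the same arrays.

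**Figure D1:**
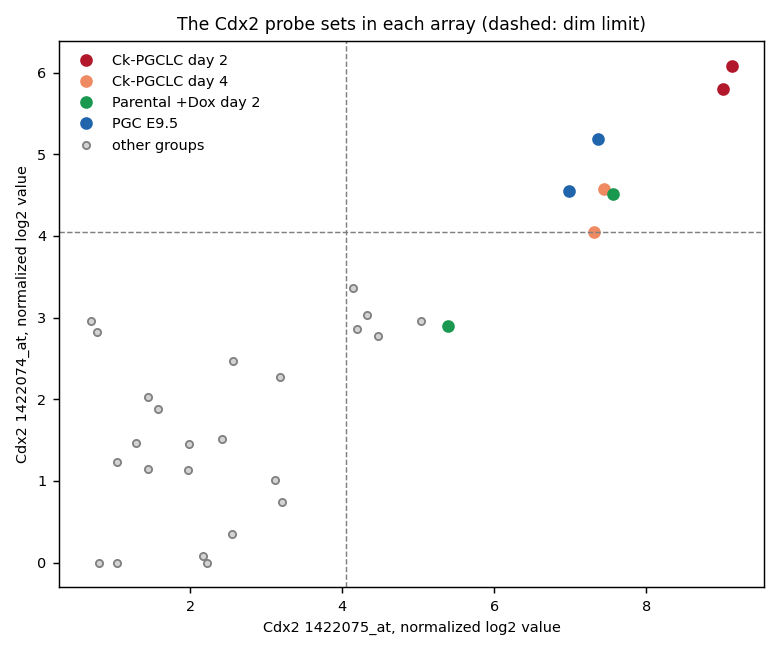
The normalized log2 value of Cdx2 probe set 1422075_at (x axis) and of 1422074_at (y axis) in each of the 32 arrays; the dashed lines mark the dim limit of 4.05. The Ck-PGCLC day 2 arrays lie at the top right on both, and the parental arrays lie apart from each other along both axes.

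Cdx4, an X-linked member active in the streak and early tail bud, was above the dim limit in 1 group. Its probe set stood at 4.84 and 4.94 in Ck-PGCLCs at day 2. All other group means lay between 1.40 and 3.29, including 2.41 and 2.80 in the arrays of Ck-PGCLCs at day 4, 3.24 and 1.74 in the parental clone, and 3.05 and 3.31 in 36 h EpiLCs. It passed the filter on dim values through the cytokine cells of day 2 alone, so a difference between them and the other groups was needed for it to be tested at all. Its differences from that group are therefore given below as descriptions, with the fitted values, and support nothing. Its E9.5 PGC arrays, at 3.06 and 3.51, were dim as well.

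**Figure D2:**
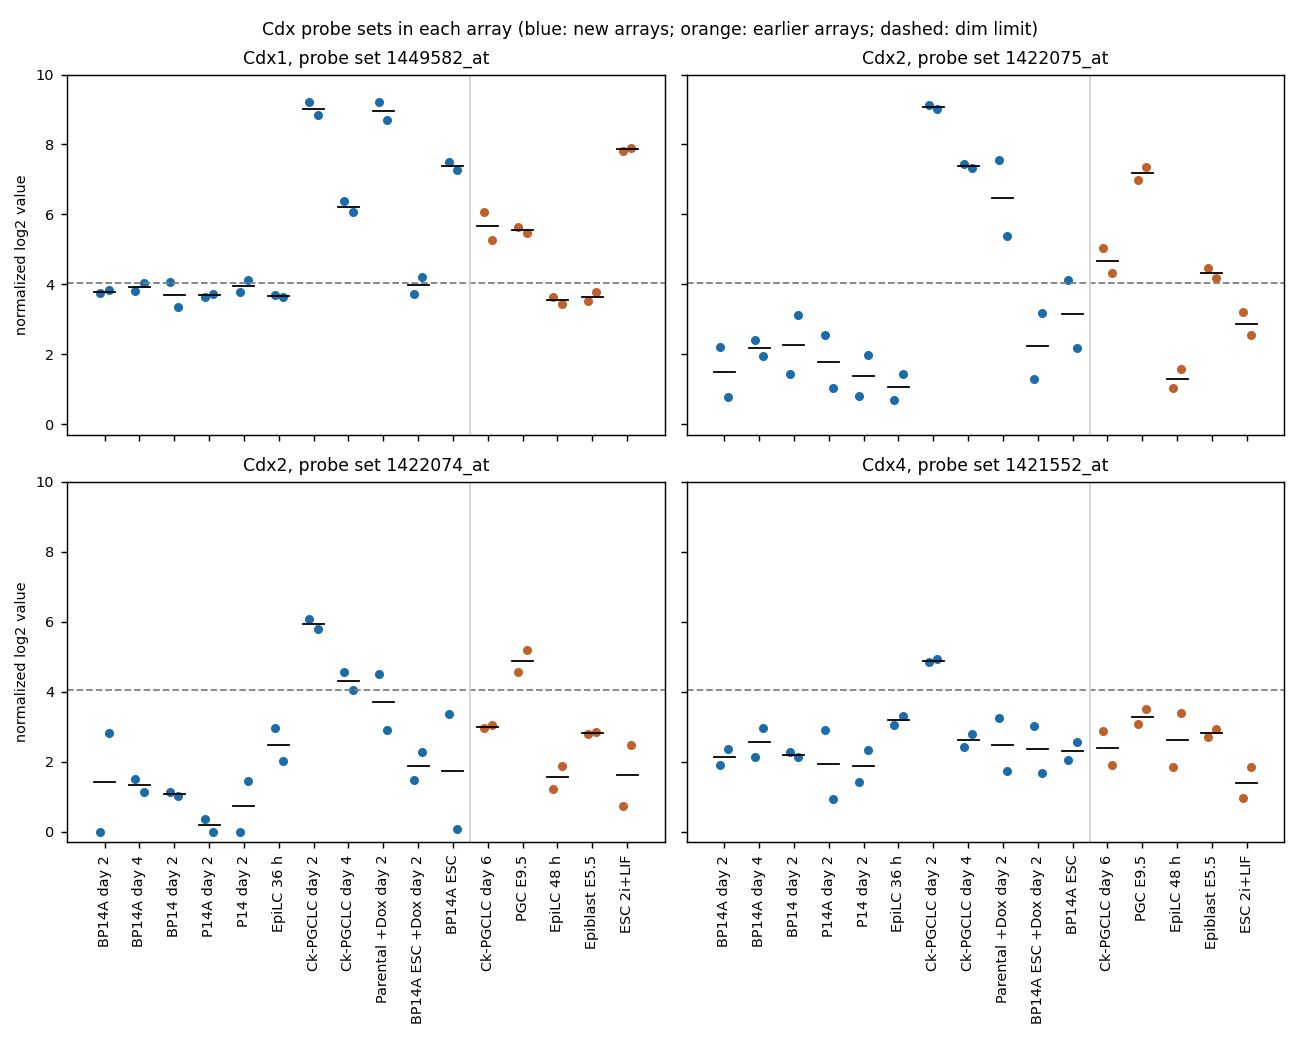
Normalized log2 values (y axis) of the 4 Cdx probe sets in each of the 32 arrays, by group (x axis); points are arrays, bars are group means, blue marks new and orange earlier arrays, and the dashed line is the dim limit of 4.05. Ck-PGCLCs at day 2 hold the highest mean in every panel, and the means of the factor-induced groups lie below the limit throughout.

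The question for the cytokine route was whether the family came on as EpiLCs entered it. At day 2, Cdx1 and Cdx2 were far above 36 h EpiLCs on 3 probe sets, and Cdx4 was higher without passing the test. Cdx1 at 9.02 ± 0.26, against 3.66 ± 0.04 in EpiLCs (SD, n = 2 each), differed by 5.37 on the log2 scale (SE 0.27), with an adjusted p of 9.97e-11 from limma. Since EpiLCs were dim, the difference is at least 31.4-fold when values under the limit are set to it. Cdx2 differed by 8.0 on 1422075_at (SE 0.79, adjusted p = 5.08e-07, at least 32.5-fold) and by 3.46 on 1422074_at (SE 0.90, adjusted p = 0.00975, at least 3.72-fold). Without replicate 1 of the day 2 cells the call of 1422074_at ended (3.31, adjusted p = 0.0642), and likewise without replicate 2 of the EpiLCs (2.99, adjusted p = 0.0908). Cdx4 differed by 1.70 (95% interval 0.39 to 3.02, adjusted p = 0.0708). Calls here and below require an adjusted p under 0.05 together with 2-fold or more between group means, and by that rule 6.52% of the 32702 tested probe sets were higher in this comparison.

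From day 2 to day 4 of the cytokine route, Cdx1 fell, and Cdx2 was lower without passing the test. Cdx1 fell by 2.81 on the log2 scale (SE 0.27, adjusted p = 5.46e-07), with both days above the dim limit. Cdx4, dim at day 4, differed by -2.28 (SE 0.63, adjusted p = 0.0174), or at least 1.79-fold with values floored at the dim limit, and no single array could be left out without ending that call (-2.48 to -2.09, adjusted p of 0.0565 to 0.123). Cdx2 differed by -1.69 on 1422075_at (95% interval -3.36 to -0.03, adjusted p = 0.194) and by -1.63 on 1422074_at (adjusted p = 0.288). In this comparison 5.22% of probe sets were called lower. The day 4 arrays of both Cdx2 probe sets lay below both day 2 arrays, and in a fit to the 4 arrays alone both were called (adjusted p = 0.014 and 0.0359). With values floored at the dim limit both were called too (adjusted p = 0.00414 and 1.3e-06 from limma). The SE of 1422075_at here, 0.79, is pooled over all 16 groups, while its SD was 0.08 at day 2 and 0.09 at day 4.

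At day 4 the cytokine cells were still above 36 h EpiLCs for Cdx1 (2.56, SE 0.27, adjusted p = 8.95e-07, at least 4.50-fold) and for Cdx2 on 1422075_at (6.31, SE 0.79, adjusted p = 7.83e-06, at least 10-fold). Probe set 1422074_at differed by 1.82 (adjusted p = 0.177) and Cdx4, dim in both, by -0.58 (adjusted p = 0.608). Of all tested probe sets 7.07% were called higher. In these cells the Cdx2 arrays of day 4, at 7.44 and 7.32, lay far above the EpiLC arrays, at 0.69 and 1.45.

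**Figure D3:**
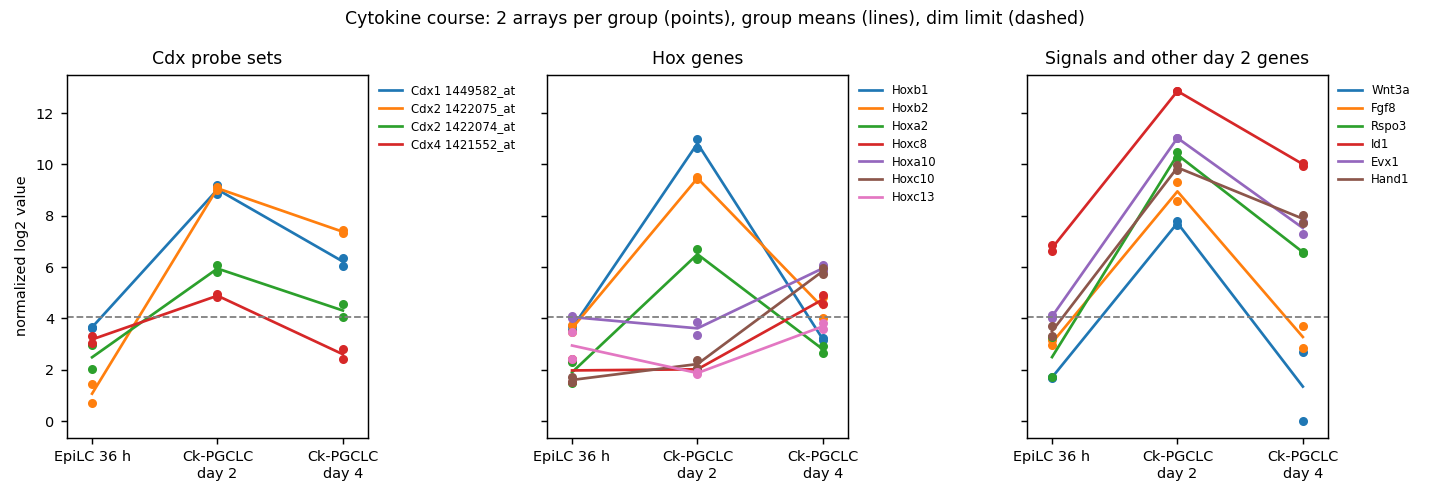
Normalized log2 values (y axis) in 36 h EpiLCs and in Ck-PGCLCs at day 2 and day 4 (x axis) for the Cdx probe sets, for Hox genes and for other genes that were called higher at day 2; points are the 2 arrays of a group, lines join group means, and the dashed line is the dim limit. Hoxb1, Hoxb2 and Hoxa2 are high at day 2 beside the Cdx genes, while Hoxc8, Hoxa10 and Hoxc10 are above the limit at day 4 alone of the 2 days and Hoxc13 lies below it at both.

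The parental clone with Dox shows what aggregates did for 2 days with neither cytokines nor factor transgenes. Against 36 h EpiLCs, Cdx1 was higher by 5.30 (SE 0.27, adjusted p = 1.15e-10, at least 30.1-fold) and Cdx2 by 5.41 on 1422075_at (SE 0.79, adjusted p = 6.51e-05, at least 5.38-fold). Without 1 of the parental arrays the Cdx2 difference was 4.32 or 6.49 and still called, and the array at 5.39 alone lies 2.54-fold above the limit, against 11.4-fold for the other. In this comparison 5.72% of probe sets were called higher. On 1422074_at Cdx2 differed by 1.22 (adjusted p = 0.42) and Cdx4 by -0.70 (adjusted p = 0.53), both with dim means on either side.

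Set against these aggregates, Ck-PGCLCs at day 2 had no detectable difference in Cdx1, at 0.06 on the log2 scale (95% interval -0.50 to 0.62, adjusted p = 0.968), and overlapping arrays. Cdx4 differed by 2.40 (SE 0.63, adjusted p = 0.0415, at least 1.79-fold), where 1.52% of probe sets were called higher. That call, which the filter on dim values bears on, ended with no filter (adjusted p = 0.0651), without either Ck-PGCLC array (2.45 and 2.35) or without parental replicate 2 (1.65), with adjusted p of 0.178 to 0.459. A fit to the 4 arrays alone ended it too (adjusted p = 0.146), as did the replicate number as a block (adjusted p = 0.0503). Cdx2 differed by 2.60 on 1422075_at (95% interval 0.93 to 4.26, adjusted p = 0.0986) and by 2.24 on 1422074_at (adjusted p = 0.269). Both Ck-PGCLC arrays lay above both parental arrays on each Cdx2 probe set, and without parental replicate 1 1422075_at passed the test (3.68, adjusted p = 0.0393).

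Forced expression of the factors gave day 2 and day 4 cells in which no Cdx probe set rose above the dim limit as a group mean. Against 36 h EpiLCs, BP14A cells at day 2 differed by 0.13 for Cdx1 (95% interval -0.43 to 0.69, adjusted p = 0.847), by 0.43 for Cdx2 on 1422075_at and by -1.05 for Cdx4, with no call, while 8.84% of all probe sets were called in either direction. From BP14A day 2 to day 4, Cdx1 differed by 0.13 and Cdx2 by 0.69 on 1422075_at, again with no call (1.13% of probe sets called in either direction). Because both sides were dim, these differences do not measure a level.

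Set against cytokine cells of the same day, BP14A cells were lower on the 3 probe sets of Cdx1 and Cdx2 at day 2, with 5.42% of probe sets called lower. Cdx1 stood at 3.75 and 3.83 in BP14A cells, against 9.21 and 8.84 in Ck-PGCLCs, a difference of -5.24 (SE 0.27, adjusted p = 2.19e-10, at least 31.4-fold). Cdx2 on 1422075_at stood at 2.22 and 0.78 in BP14A cells, against 9.13 and 9.01 in Ck-PGCLCs (-7.57, SE 0.79, adjusted p = 1.1e-06, at least 32.5-fold). The second Cdx2 probe set, 1422074_at, differed by -4.53 (adjusted p = 0.00126, at least 3.72-fold) and Cdx4, tested only because the cytokine cells were above the limit, by -2.75 (adjusted p = 0.00434, at least 1.79-fold). In a fit to the 4 arrays alone the call of 1422074_at ended (adjusted p = 0.0727). The 2 cell kinds differ in clone and medium as well as in the transgenes, which cannot be told apart here.

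At day 4, Cdx1 was lower in BP14A cells (-2.30, adjusted p = 2.75e-05, at least 4.50-fold) and so was Cdx2 on 1422075_at (-5.19, adjusted p = 0.000431, at least 10-fold), where 2.05% of probe sets were called lower. In a fit to the 4 arrays alone neither was called (adjusted p = 0.0596 for Cdx1 and 0.0558 for Cdx2). Probe set 1422074_at was called too (-2.99, adjusted p = 0.0494), but leaving out any 1 of its 4 arrays ended the call, with adjusted p of 0.124 to 0.271, and between floored values it came to -0.26 (adjusted p = 0.465). Cdx4, dim in both, differed by -0.05 (adjusted p = 0.978).

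The change from day 2 to day 4 was set against itself in the 2 routes with an interaction term. The Cdx1 change was lower in the cytokine route than in the BP14A route (-2.94, SE 0.38, adjusted p = 4.15e-05), with 4.87% of probe sets called lower; Cdx1 was dim at both days in the BP14A route. The same term was -2.39 for Cdx2 on 1422075_at (adjusted p = 0.224), -1.55 on 1422074_at (adjusted p = 0.551) and -2.70 for Cdx4 (adjusted p = 0.0638).

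For Cdx1 and for Cdx2 on 1422075_at, all 4 factor combinations lay below the parental clone with Dox at day 2. That clone shares the Dox but lacks the transgenes, and clone and transgenes cannot be told apart here. Cdx1 differed by -5.17 in BP14A cells, -5.25 in BP14 cells, -5.28 with P14A and -5.01 with P14, each at least 29.3-fold and with adjusted p of 1.19e-10 to 1.91e-10. Cdx2 on 1422075_at differed by -4.98, -4.19, -4.68 and -5.08 in the same order (adjusted p between 0.000118 and 0.000908, each at least 5.38-fold over both parental arrays). Without parental replicate 1 they were -3.89, -3.11, -3.60 and -4.0 and still called (adjusted p up to 0.0336), and the remaining array lies 2.54-fold above the limit. In a fit to the 4 arrays alone the calls of BP14 (adjusted p = 0.104) and P14A (adjusted p = 0.0556) ended. The shares of probe sets called lower were 5.72%, 5.09%, 5.29% and 5.32%. Probe set 1422074_at was called in P14A (-3.53) and P14 (-2.98), although its mean was dim on both sides and the difference between floored values comes to 1.17-fold (-0.23, adjusted p of 0.5 for P14A and 0.488 for P14). The P14A call ended without its replicate 2 (-3.35) and the P14 call without its replicate 1 (-2.26), and both ended without parental replicate 1 (-2.73 and -2.18), while the BP14A difference, at -2.29, was called without BP14A replicate 2 (-3.71, adjusted p = 0.0147). Cdx4 was called in none of these 4 comparisons, with differences of -0.62 to -0.29.

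No Cdx probe set separated the factor combinations from each other. BP14A against BP14 gave 0.08 for Cdx1 (adjusted p = 0.984), and BP14A against P14A gave 0.10. Cdx2 on 1422075_at differed by -0.78 and -0.30 in these comparisons. Few probe sets did so anywhere, with 0.165% called in either direction against BP14 and 0.0122% against P14A.

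**Figure D4:**
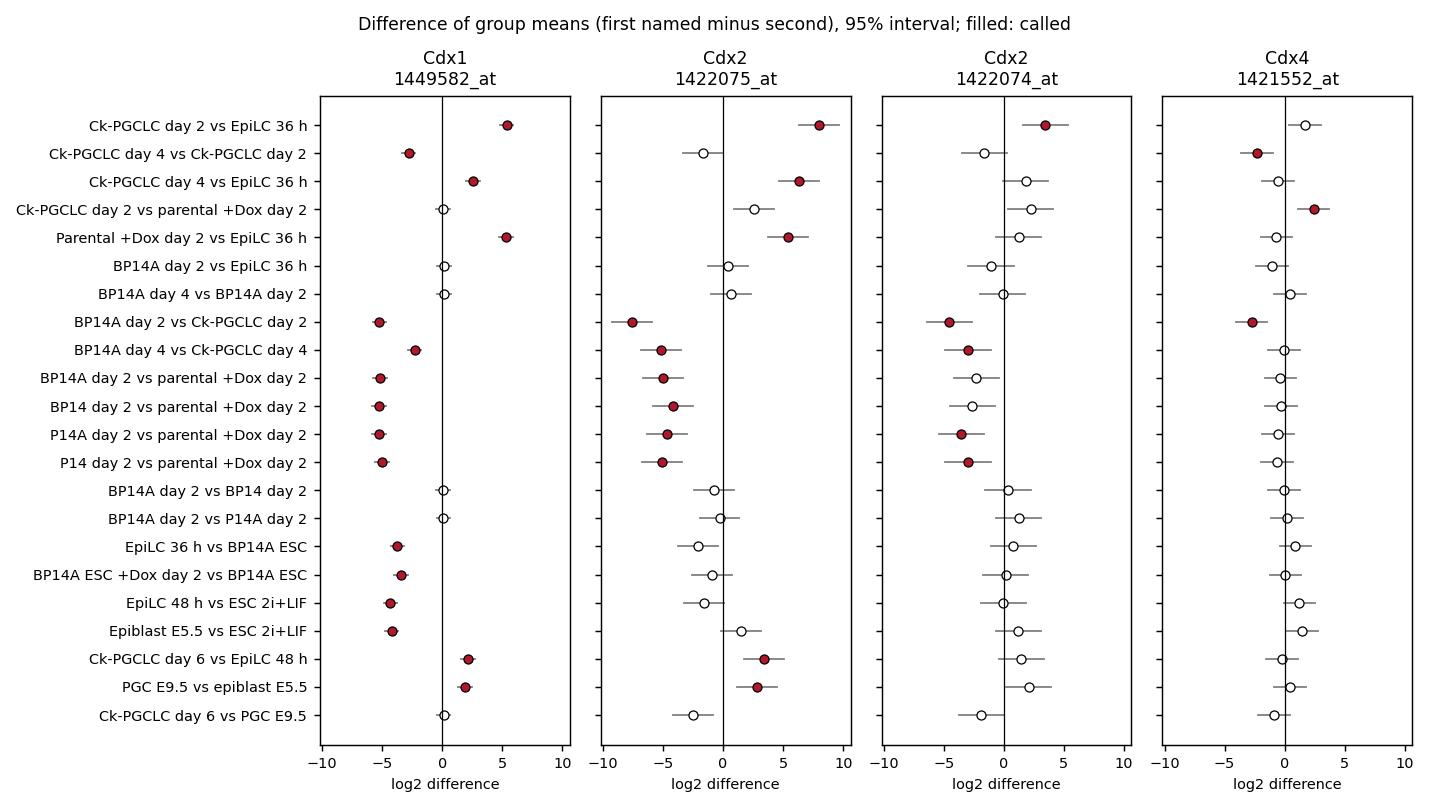
Log2 difference of group means (x axis, group named first minus group named second) with its 95% interval for the 4 Cdx probe sets in 22 comparisons (y axis); filled points are called, at an adjusted p below 0.05 and at least 2-fold. Cdx1 and Cdx2 are called lower in BP14A cells than in Ck-PGCLCs at both days, and the 3 filled Cdx4 points are comparisons with Ck-PGCLCs at day 2, the group through which Cdx4 passed the filter.

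Cdx1 alone of the family was high in ESCs. It was lower in 36 h EpiLCs than in BP14A ESCs (-3.73, SE 0.27, adjusted p = 6.83e-09, at least 10.1-fold), where 5.95% of probe sets were called lower. In stella-ECFP-sorted BP14A ESCs after 2 days of Dox it stood at 3.74 and 4.21, against 7.50 and 7.27 in the same ESCs without Dox (-3.41, SE 0.27, adjusted p = 1.04e-07, at least 9.55-fold), where 2.98% of probe sets were called lower. The ESCs without Dox were in 2i+LIF, and sorting is named for the Dox cells alone. Dox, the transgenes, the 2 days, sorting and any difference in medium cannot be told apart here. The earlier arrays gave the same direction: -4.32 in 48 h EpiLCs (adjusted p = 1.7e-09) and -4.21 in E5.5 epiblast (adjusted p = 1.18e-09) against 2i+LIF ESCs, each at least 14.1-fold, with 5.39% and 7.12% of probe sets called lower. Cdx2 on 1422075_at was dim in ESCs and no comparison with ESCs was called, with differences of -2.08, -0.92, -1.58 and 1.45 in the order given. In a fit to the earlier arrays alone the last pair were called, 48 h EpiLCs lower (adjusted p = 0.0343) and epiblast higher (adjusted p = 0.0347). Both 48 h EpiLCs and ESCs were dim, so that call gives no order between them, and their floored values do not differ. Epiblast was 1.22-fold above ESCs by floored values. Leaving out 1 array moved the difference of 36 h EpiLCs from BP14A ESCs on 1422075_at to between -3.06 and -1.10. It was called without BP14A ESC replicate 2 (-3.06), but both groups were dim and differed 1.03-fold by floored values. The other Cdx2 probe set and Cdx4 were dim in every group of these comparisons and were not called.

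On the earlier arrays Cdx1 and Cdx2 were both higher in day 6 cytokine cells than in 48 h EpiLCs. Cdx1 differed by 2.13 (SE 0.27, adjusted p = 6.68e-06, at least 3.09-fold) and Cdx2 by 3.38 on 1422075_at (SE 0.79, adjusted p = 0.00357), where 7.74% of probe sets were called higher. The Cdx2 difference between floored values is 1.55-fold, since EpiLCs were dim and the day 6 arrays, at 5.04 and 4.32, lay close to the limit. On 1422074_at the difference was 1.44 (adjusted p = 0.289) and Cdx4 by -0.24 (adjusted p = 0.847), both dim on either side.

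Cdx1 and Cdx2 were both above the dim limit in PGCs taken from E9.5 embryos. Cdx1 was higher than in E5.5 epiblast by 1.91 (SE 0.27, adjusted p = 2.93e-05, at least 2.84-fold) and Cdx2 by 2.84 on 1422075_at (SE 0.79, adjusted p = 0.0141), where 6.8% of probe sets were called higher. Cdx2 stood at 6.98 and 7.37 in the PGCs, against 4.48 and 4.20 in epiblast. The Cdx2 call ended without either epiblast array or without PGC replicate 2, with differences of 2.64 to 2.98 and adjusted p of 0.0526 to 0.0845. For 1422074_at it was 2.05 (adjusted p = 0.127) and Cdx4 by 0.46 (adjusted p = 0.705). Primitive blood and endothelium genes moved with this comparison: the mean of the 14 genes of that list was 7.56 and 7.30 in the PGC arrays, against 4.86 and 4.99 in the epiblast arrays. Of the list, 5 of 14 genes were called higher, where 8.67% of all genes were, counted by the brightest probe set. All 14 lay above the dim limit in both PGC arrays, against 12 and 11 in the epiblast arrays. The embryonic globin gene Hbb-y, picked here after its values were seen, averaged 11.92 in PGCs and 1.87 in epiblast. Their part in the Cdx values was not tested.

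Day 6 cytokine cells and E9.5 PGCs gave overlapping Cdx1 arrays (0.12, 95% interval -0.44 to 0.68, adjusted p = 0.917). Cdx2 on 1422075_at differed by -2.49 (95% interval -4.15 to -0.83, adjusted p = 0.0625), with both day 6 arrays below both PGC arrays. It was called in a fit to the earlier arrays alone (adjusted p = 0.014) and under 5 other settings (adjusted p of 0.000198 to 0.049). In this comparison 5.34% of probe sets were called in either direction. Cdx2 on 1422074_at differed by -1.87 (adjusted p = 0.278) and Cdx4, dim in both, by -0.90 (adjusted p = 0.542).

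Genes of the signals that act on Cdx genes in the embryo were called in the same comparisons. All gene lists here were chosen with earlier results of these data known. Their counts beside the share over all genes are therefore descriptions and support nothing. Of 29 tested WNT, FGF, BMP and retinoic acid pathway genes, counted by the brightest probe set of each, 17 rose and 2 fell in Ck-PGCLCs at day 2 against 36 h EpiLCs, with a median difference of 2.70, against -0.04 over all 15497 genes, of which 8.2% were called higher. Rspo3, an amplifier of WNT signals, stood at 10.25 and 10.50 in Ck-PGCLCs, against 1.73 and 3.27 in EpiLCs (7.88, adjusted p = 4.89e-10). EpiLCs were dim for Rspo3, so its difference is at least 80.3-fold by floored values, and the fitted differences of other genes with a dim group are likewise given with such a bound. Id1, a direct BMP target, stood at 12.86 in both Ck-PGCLC arrays, against 6.86 and 6.62 in EpiLCs (6.12, adjusted p = 4.45e-13). Wnt3a, a ligand of the streak, differed by 6.02 (adjusted p = 0.000205, at least 12.7-fold) and Fgf8 by 5.90 (adjusted p = 2.93e-08, at least 29.9-fold). Fgf4, an FGF of pluripotent cells, fell by 3.39 and Tcf7l1, a WNT repressor, fell by 1.21.

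By day 4 the same list had 0 genes higher and 13 of 29 lower than at day 2 by this test (median -1.13, against 0.02 over all genes, of which 6.53% were called lower). Wnt3a fell by 6.37 (at least 12.7-fold) and Fgf8 by 5.67 (at least 29.9-fold), both to a dim level. Cyp26a1, which breaks down retinoic acid, fell by 4.65 and Wnt8a by 4.22.

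In the parental clone WNT and FGF genes of the list were called as well, while Bmp4 was not (-0.15, adjusted p = 0.79). The BMP target Id1 averaged 9.24 in the parental clone, against 6.74 in 36 h EpiLCs, a 5.66-fold difference. Against 36 h EpiLCs, 15 of the 29 genes rose and 3 fell in the parental clone (median 1.48, against -0.05 over all genes, of which 6.94% were called higher). Between Ck-PGCLCs and the parental clone, 8 of 29 were higher and 2 lower (median 0.75, against 0.02, with 2.18% of genes called higher). Wnt3a and Fgf8 were not called between them (1.26, adjusted p = 0.717, and 0.13, adjusted p = 0.961). Id1 was higher in Ck-PGCLCs by 3.62 (adjusted p = 1.91e-09), at 12.86 in both arrays, against 9.32 and 9.16 in the parental clone. Rspo3 was higher by 2.80 and Bmp4 itself by 4.02, while Wnt8a was lower (-2.29). In BP14A cells at day 2, 16 of the 29 were lower and 1 higher than in Ck-PGCLCs (median -2.72, against 0.05, with 6.8% of genes called lower).

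Hox genes, the main targets of Cdx proteins in the embryo, did not move as one block. In Ck-PGCLCs at day 2, 4 of 31 tested Hox genes were higher than in EpiLCs and 0 lower at an adjusted p below 0.05 and at least 2-fold (median 0.31, against -0.04 over all genes, of which 8.2% were called higher). Hoxb1 stood at 10.63 and 11.01 in Ck-PGCLCs, against 3.71 and 3.54 in EpiLCs (7.20, adjusted p = 1.97e-09, at least 109-fold). Hoxb2 differed by 5.85 (at least 42.7-fold) and Hoxa2 by 4.60 (adjusted p = 3.64e-05, at least 5.48-fold), so 3 of the 4 were anterior-group genes. Hoxd9, a posterior-group gene, stood at 6.92 and 6.98 in Ck-PGCLCs, against 4.42 and 4.52 in EpiLCs (2.48, adjusted p = 0.000692). Hoxa7, a known target of Cdx1 in the mouse embryo (-0.43, adjusted p = 0.275), and Hoxb9 (0.84, adjusted p = 0.318) were not called. The Hoxa7 group means lay between 6.55 and 7.37 in all 16 groups, so its probe set changed little anywhere in the series. Hoxb8 was not measured.

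Between day 2 and day 4, 3 anterior Hox genes fell and 3 more posterior ones rose, while Hoxc13 passed the test (1.82) but was dim at both days. Hoxb1 fell by 7.63 on the log2 scale, to 3.15 and 3.23 in day 4 cells, against 10.63 and 11.01 in day 2 cells (at least 109-fold), and Hoxb2 fell by 5.04 and Hoxa2 by 3.70 (at least 5.48-fold). Hoxc10 rose by 3.62, to 5.95 and 5.74 at day 4, against 2.37 and 2.09 at day 2 (at least 3.47-fold). Hoxc8 rose by 2.72 (4.90 and 4.58, against 2.05 and 1.99, at least 1.62-fold) and Hoxa10 by 2.34 (at least 3.75-fold). In all, 4 of 31 passed the test as higher, Hoxc13 included, and 3 as lower. The median was 0.11, against 0.02 over all genes, of which 5.48% were called higher and 6.53% lower. The 3 of 31 called lower are a share near that over all genes.

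In the parental clone Hoxb1, Hoxb2 and Hoxa2 were the 3 Hox genes called higher than in EpiLCs (7.60, 6.30 and 5.68, or at least 145-fold, 58.6-fold and 11.6-fold), with a median over the list of 0.04, against -0.05 over all genes, of which 6.94% were called higher. These 3 of 31 are a share near that over all genes. Hoxd9, at 3.63 and 4.08, was not called there (-0.61, adjusted p = 0.439), and it was the 1 Hox gene called between Ck-PGCLCs and the parental clone (3.10, adjusted p = 0.000388). BP14A cells at day 2 had 6 of 31 Hox genes lower than Ck-PGCLCs and 0 higher by the same rule, among them Hoxb1 (-8.46, at least 109-fold), Hoxb2 (-6.61, at least 42.7-fold), Hoxa2 (-4.14, at least 5.48-fold) and Hoxd9 (-2.85). The median over the list was -0.18, against 0.05 over all genes, of which 6.8% were called lower. PGCs of E9.5 had 13 of 31 higher than epiblast and 0 lower by the same rule (median 0.92, against -0.002 over all genes, with 8.67% of genes called higher). Hoxb9 stood at 8.15 and 6.88 in those PGCs, against 4.07 and 2.69 in epiblast (4.14, adjusted p = 6.96e-06, at least 11-fold). The mean over the 33 measured Hox genes was 5.811 and 5.045 in the PGC arrays, against 3.797 and 3.86 in epiblast. The blood and endothelium genes high in the same PGC arrays are given above, and their part in the Hox values was not tested.

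Factors of the streak and axis were called in both day 2 groups too. Of 14 tested members of that list, 10 rose and 1 fell in Ck-PGCLCs at day 2 against EpiLCs (median 2.93, against -0.04 over all genes, of which 8.2% were called higher). The streak gene T, also on the list, was not measured and is not in these counts. In the parental clone 8 rose and 1 fell (median 3.37, against -0.05, with 6.94% of genes called higher). Evx1, a homeobox gene of the posterior streak, stood at 11.02 and 11.04 in Ck-PGCLCs and at 8.87 and 8.78 in the parental clone, against 4.02 and 4.13 in EpiLCs. Evx1 differed by 6.95 in Ck-PGCLCs and by 4.75 in the parental clone. Eomes, a T-box factor of the streak and trophoblast, was higher in both (1.68 and 3.52) but lower in Ck-PGCLCs than in the parental clone (-1.84, adjusted p = 0.00288). At day 4, 9 of the 14 were lower than at day 2 and 0 higher by the same test (median -2.16, against 0.02, with 6.53% of genes called lower).

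Cdx2 also marks trophoblast and gut, and markers of these were counted beside it. Of 17 tested trophoblast genes, 8 rose and 2 fell in Ck-PGCLCs at day 2 against EpiLCs (median 0.86, against -0.04 over all genes, of which 8.2% were called higher). The mean over the 18 measured genes of that list was 7.06 and 7.10 in Ck-PGCLCs, against 5.66 and 5.55 in EpiLCs. Gata3 rose by 6.35 (at least 13.5-fold) and Hand1 by 6.38 (at least 56.9-fold), and these are also genes of amnion and extraembryonic mesoderm, while Elf5, which defines the trophoblast stem cell, lay at 4.07 and 3.97 in Ck-PGCLCs, against 3.99 and 3.84 in EpiLCs (adjusted p = 0.947). Tfap2c, in this list and in that of germ cells, rose by 4.85. The 2 trophoblast genes that fell were Ascl2 (-2.6, adjusted p = 1.01e-05) and Krt7 (-1.36, adjusted p = 0.0179). Of 14 allantois and extraembryonic mesoderm genes 7 rose and 0 fell by this test (median 1.70).

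For genes of the gut, blood and endoderm the counts lay near the share over all genes. Of 14 tested intestinal genes known to lie under Cdx control, 1 was called higher in Ck-PGCLCs at day 2 (Lgals3, 2.67) and 0 lower, with a median of -0.25, against -0.04 over all genes, of which 8.2% were called higher. The mean over the 18 measured genes was 3.95 and 4.16 in Ck-PGCLCs, against 4.36 and 4.30 in EpiLCs. Blood and endothelium genes (1 of 14 higher, Gata2, median -0.42) and endoderm genes (1 of 11 higher, Gata6, median 0.20) had 0 lower by the same rule. Among germ cell genes 6 of 9 rose at day 2 (median 1.47). From day 2 to day 4, an interval in which Cdx1 fell, 9 of 9 rose (median 3.20, against 0.02 over all genes, of which 5.48% were called higher). Of 8 core pluripotency genes 4 rose and 1 fell at day 2 (median 1.56). Pou5f1, the octamer-binding factor of pluripotent cells, stood at 12.29 and 12.27 in Ck-PGCLCs at day 2, against 12.67 and 12.80 in EpiLCs, under a 2-fold difference.

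**Figure D5:**
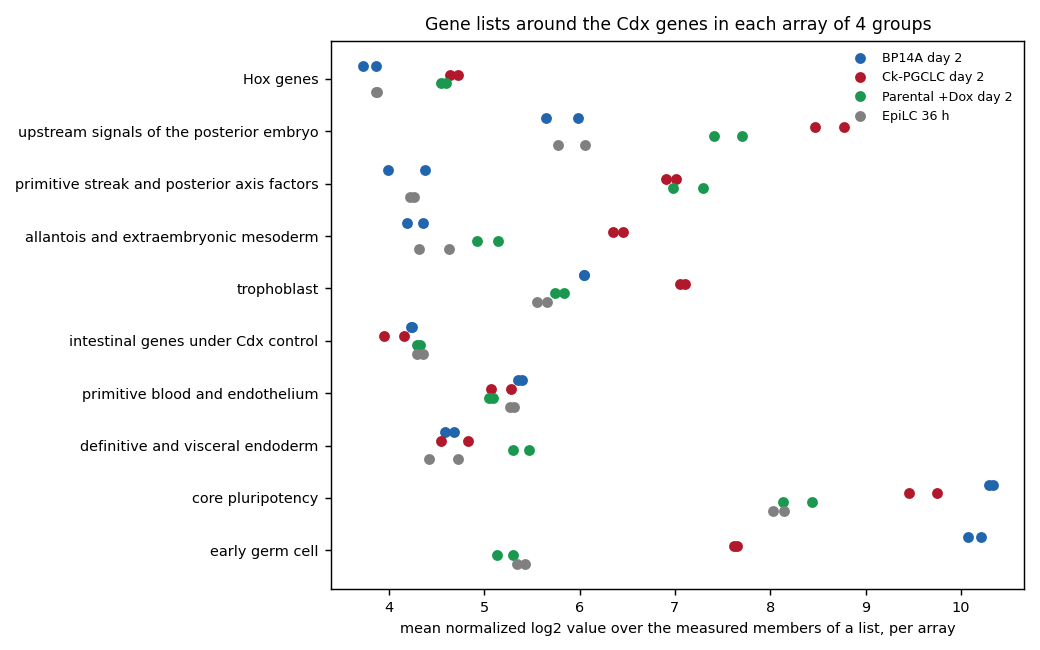
Mean normalized log2 value over the measured genes of each list (x axis) in each array of BP14A day 2, Ck-PGCLC day 2, parental +Dox day 2 and EpiLC 36 h (colours), by list (y axis). The signal and streak lists are high in the Ck-PGCLC and parental arrays, and the trophoblast and allantois lists are highest in the Ck-PGCLC arrays.

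The members' patterns across groups were alike in part. Over the 16 group means, Cdx1 and Cdx2 (1422075_at) correlated at r = 0.713 (Spearman 0.715), Cdx2 and Cdx4 at 0.634 (0.365), and Cdx1 and Cdx4 at 0.295 (-0.038). These describe means from the same arrays, many of them dim.

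By the same measure over 15497 genes, those most like Cdx1 were Rpn2 (r = 0.94), Plin2 (0.931), Sp5 (0.921), Frmd4b (0.918) and Axin2 (0.915), where Sp5 and Axin2 are widely used reporters of WNT signalling. Over the 11 new groups alone Sp5 led (0.967), and Dkk1, a secreted WNT inhibitor, was among the 8 most alike (0.95). Cdx2 was most like Evx1 (0.956), Tmem176a (0.945), H1f2 (0.936) and the BMP target Id1 (0.929). Cdx4 was most like Lamb1 (0.885). Over the 11 new groups Popdc3 (0.95), Ntng1 (0.933), Bmper (0.926) and Nmb (0.922) came first, ahead of Bmp4 (0.916) and Mesp1 (0.911). Cdx4 was above the dim limit in 1 group alone, Ck-PGCLCs at day 2. Its likeness therefore rests on that group and on values treated as having no order. With ranks (Spearman) in place of values, only 0 to 2 of the 8 genes were shared with these lists, while the deposited values without normalization shared 5 to 8 of 8.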

How the data were processed

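The values are log2 expression values per probe set and array as deposited by the authors, from 0 to 14.59, for 45101 probe sets of a 1-colour Affymetrix array. The log base was read from that range, and the software behind them is not given in the sources used here. RNA was prepared with RNeasy, per the labels' protocols.

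From these, 64 control probe sets were left out, the arrays were quantile-normalized, and probe sets with a group mean at or above the 40th percentile in at least 1 group were kept (32702). All 4 Cdx probe sets passed, Cdx4 through 1 group. limma 3.58.1 (R 4.3.3) fitted 1 mean per group over all 32 arrays, leaving 16 residual degrees of freedom, with Benjamini-Hochberg adjustment over the tested probe sets in each of 22 comparisons and 1 interaction. Gene lists were counted by each gene's brightest probe set. Where a group was dim, fold bounds set values under the limit to it. The method was tested on simulated data.

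The Cdx members and the gene lists were chosen with earlier results of these data known. From the lists, up to 4 called genes with the largest rise and fall at day 2 and day 4 of the cytokine route were named, with a short set always named. Arrays with the same number in different groups did not deviate together throughout (median r of 0.067, from -0.246 to 0.476, over 0.1 in 47 of 120 pairs of groups), so the numbers were not used as pairs. Matplotlib 3.10.9 drew the figures.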

Additional observations from a re-analysis of the deposited data

Results flagged for a closer look

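The change of Cdx1 between day 2 and day 4 differed between the routes by a test of the difference itself: the interaction was -2.94 on the log2 scale, cytokine minus BP14A route (SE 0.38, adjusted p = 4.15e-05 by limma). Cdx1 fell by 2.81 in the cytokine route, where both arrays of day 4 lay below both of day 2. In the BP14A route it differed by 0.13 and was dim at both days, so a fall there could not have been measured.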

How the results depend on the processing

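Of 1123 values under alternatives, 1073 kept their side of the threshold (38 uncalled ones among them turned sign or came to 0), 29 lost the call, 21 gained it, and no called value changed sign. Of the Cdx1 calls 1 ended, in BP14A against Ck-PGCLCs at day 4 with only the 4 arrays compared (-2.30, adjusted p = 0.0596). Flooring at the dim limit, which shrinks differences from dim groups and their spread, put Cdx4 under 2-fold in BP14A against Ck-PGCLCs at day 2 (-0.84), in Ck-PGCLCs at day 2 against the parental clone (0.84) and at day 4 against day 2 (-0.84). It ended the Cdx2 calls on 1422075_at in Ck-PGCLCs at day 6 against EpiLCs (0.63, adjusted p = 0.286) and on 1422074_at in BP14A against Ck-PGCLCs at day 4 (-0.26) and in P14A and P14 against the parental clone (-0.23). It added calls for Cdx2 at day 4 against day 2 (-1.69 on 1422075_at and -1.63 on 1422074_at), against the parental clone (2.60 and 1.67) and for the interaction on 1422074_at (-1.63). With only the 4 arrays compared, 1422074_at lost its call in BP14A against Ck-PGCLCs at day 2 (-4.53) and day 4 (-2.99) and in P14 against the parental clone (-2.98), 1422075_at in BP14A against Ck-PGCLCs at day 4 (-5.19, adjusted p = 0.0558) and in BP14 (-4.19) and P14A (-4.68) against the parental clone, and Cdx4 in Ck-PGCLCs against the parental clone (2.40). Calls were gained there for both Cdx2 probe sets at day 4 against day 2 (-1.69 and -1.63), Cdx4 at day 2 against EpiLCs (1.70) and 1422074_at in PGCs against epiblast (2.05, gained too with only the earlier arrays). With only the earlier arrays 1422075_at was also called in 48 h EpiLCs (-1.58) and epiblast (1.45) against ESCs. By floored values these EpiLCs and ESCs do not differ, and epiblast is 1.22-fold higher. In day 6 cells against PGCs it was called under 6 settings: the earlier arrays, 1 probe set per gene, the 60th percentile filter, trend and robust options, floored values (-2.49 in each) and the mean of probe sets (-2.18). The mean of the Cdx2 probe sets was called against the parental clone (2.42), and with 1 probe set per gene the Cdx4 interaction was called (-2.70). At an adjusted p under 0.01 the calls of 1422075_at in PGCs (2.84), and of Cdx4 against the parental clone (2.40) and at day 4 against day 2 (-2.28), ended.

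The Cdx4 difference from the parental clone (2.40) also lost its call with no filter, with only the new arrays, with trend and robust options, and with the replicate number as a block (adjusted p = 0.0503). Under that block 1422074_at also lost its call in BP14A against Ck-PGCLCs at day 4 (-2.99, adjusted p = 0.054), and no other Cdx call changed. Leaving out 1 array gave 2.99 to 3.92 for 1422074_at and EpiLCs, 1.51 to 3.68 for 1422075_at and the parental clone, and 2.64 to 3.03 for 1422075_at in PGCs against epiblast. Cdx4 ranged from 1.65 to 3.15 against the parental clone and from -2.48 to -2.09 at day 4 against day 2. Cdx4 was not tested with the filter at the 60th percentile. The cause of these changes was not tested, and most concern values near or under the dim limit. Counts of called probe sets moved by over 1.5 times in 16 of 23 comparisons with no fold limit (2383 to 7720 calls, against 1503 to 4940), in 15 of 22 with only the 4 arrays (0 to 2944, against 4 to 4940), and in 5 of 23 at an adjusted p under 0.01 (1 to 1655, against 4 to 2720).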
